A study of Mus musculus with 6 samples.

Results

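The genes described here are 33 targets of the tumour suppressor p53 and regulators of apoptosis, measured in mouse retina. They were chosen by name from a fixed list, 16 as p53 targets, 18 as genes that promote apoptosis directly and 3 as survival genes, with Bax, Bbc3, Fas and Pmaip1 on both of the first lists. The arrays carried 40 probes for them, 1 for each of 26 genes and 2 for each of 7. Of the 33 genes, 32 passed the filter on dim probes, among 26134 genes or names tested. Eda2r, a receptor of the tumour necrosis factor family and p53 target, was not well above background with either probe in either channel on any array, and is not described further.

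The retinas came from male C57BL/6 mice aged 8 weeks, 7 days after the right eye received phosphate-buffered saline (PBS) or titanium dioxide nanoparticles by injection into the vitreous body behind the lens. The nanoparticle doses were one the labels call PTC and 10 times that dose, called 10PTC, with 12 mice per group and 4 retinas pooled per tube. On each of 6 two-colour arrays, 3 per dose, RNA of a treated pool was labelled with Cy5 and control RNA with Cy3. The dyes were never swapped, so an effect of the dye on a probe and an effect of the treatment cannot be told apart. Each value below is a log2 ratio, treated to control; 0 means equal signal and 1 a doubling. A gene was called higher or lower at an adjusted p under 0.05 in limma, a linear model fitted across all genes, with Benjamini-Hochberg adjustment. The test compares each dose with 0, because the control is a channel of every array, and it uses a spread estimated over all 6 arrays.

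The protein p53 is a transcription factor that is kept low by the ubiquitin ligase Mdm2 and is stabilised when DNA or the cell is damaged. It then raises transcription of genes that stop the cell cycle, repair DNA or start cell death, and of Mdm2 itself, which closes the loop. In the mitochondrial route to death, BH3-only proteins relieve the block that survival proteins such as Bcl2, Bcl-xL and Mcl1 hold over Bax and Bak, which then open pores in the outer membrane and let out the factor that assembles Apaf1 and caspase-9. In the receptor route, ligands bind receptors such as Fas, whose adaptor Fadd recruits caspase-8. In the retina both routes are known from ganglion cell loss after optic nerve damage and from photoreceptor degeneration, and Bax is required for much of the ganglion cell death after axon injury.

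To show what the p53 target label means at the level of DNA, promoters of the members were searched for the p53 decamer, the 10-base element that p53 recognises in pairs. The element reads the same way on both strands, so a single scan covers both. RefSeq promoters of build GRCm38.p6, from 250 bases before to 50 bases after a start site, were at hand for 28 of the 33 members as 37 windows. The decamer was in 8 of the 18 windows of p53 targets, or 44.4%, in 0 of the 19 windows of the other members and in 8.36% of all 32851 windows. The 8 windows belong to Aen, with a pair of overlapping windows that share 1 decamer, and to Bax, Ccng1, Cdkn1a, Gadd45a, Mdm2 and Sesn1. A pair of decamers at most 13 bases apart was in 1 member window, at Cdkn1a, and in 0.0731% of all windows. Below are the 250 bases before the start site for this window and for Mdm2, Ccng1 and Bax, which carry the decamer and moved in different directions on the arrays; capitals mark the decamers. Cdkn1a and Sesn1 each had 2 windows, of which only 1 held a decamer. The Cdkn1a window shown lies on the plus strand at chr17:29090729-29090978, with decamers that begin at positions -73 and -51 relative to its start. The Mdm2 window lies on the minus strand at chr10:117710759-117711008, Ccng1 on the minus strand at chr11:40755287-40755536 and Bax on the minus strand at chr7:45466899-45467148.
Cdkn1a: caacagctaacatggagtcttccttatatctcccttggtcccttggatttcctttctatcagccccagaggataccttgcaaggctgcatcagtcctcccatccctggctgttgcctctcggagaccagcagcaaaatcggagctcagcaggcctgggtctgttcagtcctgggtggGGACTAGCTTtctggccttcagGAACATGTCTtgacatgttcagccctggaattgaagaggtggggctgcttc
Mdm2: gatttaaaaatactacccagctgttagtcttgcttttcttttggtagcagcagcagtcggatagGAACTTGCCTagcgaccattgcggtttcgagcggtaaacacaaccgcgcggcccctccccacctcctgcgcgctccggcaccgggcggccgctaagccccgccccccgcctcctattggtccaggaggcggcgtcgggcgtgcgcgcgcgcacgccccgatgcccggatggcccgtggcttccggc
Ccng1: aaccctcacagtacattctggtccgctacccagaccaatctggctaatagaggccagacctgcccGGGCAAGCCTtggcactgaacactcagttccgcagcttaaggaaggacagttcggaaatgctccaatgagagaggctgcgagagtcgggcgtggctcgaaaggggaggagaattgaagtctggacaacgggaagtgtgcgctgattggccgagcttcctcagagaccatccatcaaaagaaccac
Bax: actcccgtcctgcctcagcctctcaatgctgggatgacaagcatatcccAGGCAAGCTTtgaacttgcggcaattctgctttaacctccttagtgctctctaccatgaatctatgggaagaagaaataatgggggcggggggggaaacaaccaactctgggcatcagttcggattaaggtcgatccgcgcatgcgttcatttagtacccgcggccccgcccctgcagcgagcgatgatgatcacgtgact
These matches are descriptions of sequence and not measured binding, and a window without a match says nothing about p53 at that gene, since sites can lie elsewhere.

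Most members that moved rose, at both doses, while Bax, the pore former, fell. At PTC, 13 of the 32 measured members were higher and 5 lower; over all genes, 16.9% were higher and 16.3% lower. At 10PTC, 10 members were higher and 3 lower, against 14.4% and 13.3% of all genes. Called higher at both doses were 8 members, Cdkn1a, Mdm2, Trp53inp1, Fas, Pmaip1, Bik, Casp8 and Apaf1. Pmaip1 is counted among them, though its probe passed the filter on dim probes only through the treated channel. Bax, Bad and Zmat3 were the 3 called lower at both. Control RNA may be shared between the doses, so a call at both is not independent agreement. Another 7 were called at PTC alone, 2 at 10PTC alone (Btg2 and Hrk), and 12 at neither dose. The median of the 32 members was 0.04 at PTC and 0.13 at 10PTC, and their median absolute value was 0.24 and 0.15, against 0.12 and 0.11 over all genes. In whole retina, fewer cells of a type and less RNA per cell cannot be told apart, so these values are averages over all cells of 4 retinas.

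**Figure D1:**
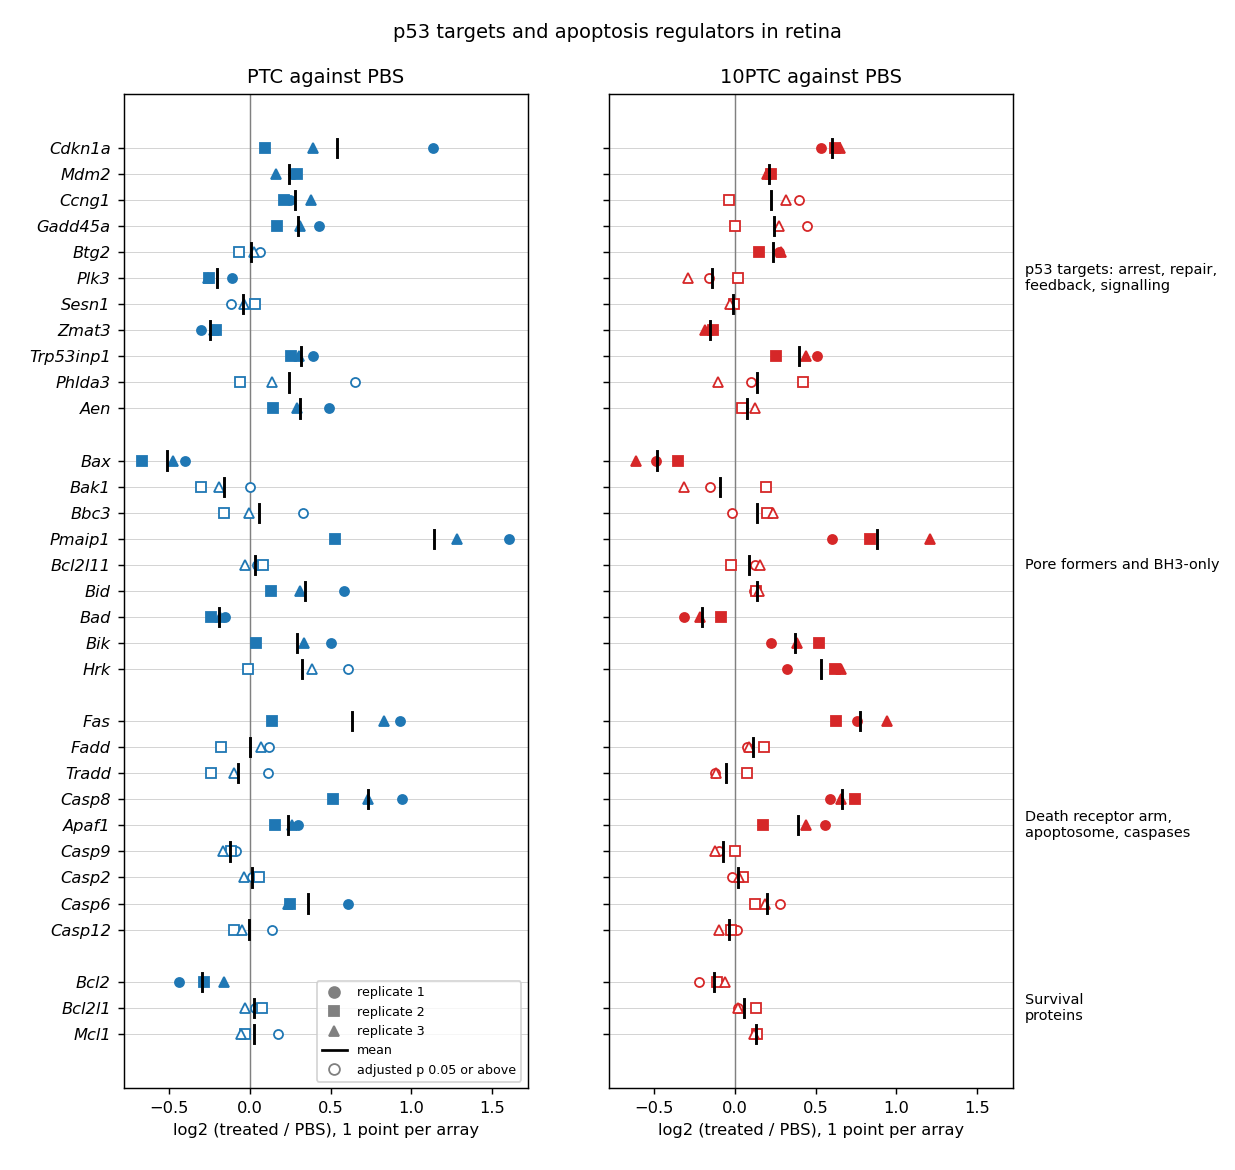
Each point is 1 array's log2 ratio of treated over PBS for 1 of 32 genes, with PTC on the left and 10PTC on the right, replicates by shape, the mean as a black bar and open points where the adjusted p was 0.05 or above. Pmaip1, Casp8, Fas and Cdkn1a lie farthest to the right of 0 and Bax farthest to the left at both doses.

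The counts rested on few arrays. Without PTC replicate 1, PTC replicate 3 or 10PTC replicate 3, the members higher at PTC numbered 7, 5 and 8; without PTC replicate 2 or 3, those lower numbered 3. At 10PTC, 2 members were higher without 10PTC replicate 1 and 2 without 10PTC replicate 3, and 1 was lower without either of these or without PTC replicate 3. Counts over all genes fell too with 1 array left out. They went as low as 2536 higher and 2468 lower at PTC, and 771 and 589 at 10PTC. PTC replicates 1 and 2 were on slide 1, and the other 4 arrays on slide 2. With slide as a block, 8 members were higher and 3 lower at PTC, and 1 was higher and 0 lower at 10PTC, a dose with no array on slide 1. Within slide 1, 0 were called at PTC; within slide 2, 4 were higher and 1 lower at PTC from its single array, and 13 were higher and 3 lower at 10PTC. The direction of all genes also bears on the split: with each array centred on its median in place of loess, 17 members were higher and 1 lower at PTC and 20 higher and 3 lower at 10PTC, while 66.1% and 65.9% of all called genes were higher, in place of 50.9% and 52%.

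Among the p53 targets, 8 of 15 measured were higher at PTC and 3 lower, and 6 were higher and 2 lower at 10PTC, with medians of 0.24 and 0.21. Over all genes, 16.9% were higher and 16.3% lower at PTC, and 14.4% and 13.3% at 10PTC. The lower counts were near these shares and show nothing particular to the list. Of the 7 that act in arrest, repair or RNA binding, 3 rose and 2 fell at PTC and 2 rose and 1 fell at 10PTC. Cdkn1a, which encodes the cell cycle inhibitor p21, had ratios of 1.13, 0.10 and 0.39 on PTC replicates 1 to 3. On the 10PTC arrays it had 0.54, 0.62 and 0.65. All 6 arrays were above 0, with PTC replicate 1 far above the other two of its dose and the 10PTC arrays close together. The means were 0.54 ± 0.54 (SD, n = 3; adjusted p = 0.0418) and 0.60 ± 0.06 (adjusted p = 0.0338) in limma, or 1.46-fold and 1.52-fold. Its call was fragile. Without PTC replicate 1 the PTC mean was 0.24 (limma adjusted p = 0.0559); the PTC call was also lost without PTC replicate 3 or any one 10PTC array, and the 10PTC call without PTC replicate 3 or any one 10PTC array.

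Cdkn1a had a second, much dimmer probe with smaller ratios. The brighter probe used here lies on chr17 at 29237377 to 29237436 of mm9 while a dimmer probe, drawn from another RefSeq transcript record of the gene, lies 9391 bases upstream. The dimmer probe had means of 0.13 at PTC and 0.04 at 10PTC (limma adjusted p over all probes 0.101 and 0.617). It was well above background on 4 of 6 arrays in the control and 5 of 6 in the treated channel, so its ratios rest on weak signal. The promoter window shown above, in build GRCm38.p6, cannot be placed beside these probes because its build differs.

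Mdm2, the ligase that p53 induces against itself, varied little between arrays. It read 0.26, 0.30 and 0.16 on PTC replicates 1 to 3. At 10PTC it read 0.21, 0.23 and 0.20. The means were 0.24 ± 0.07 (SD, n = 3; limma adjusted p = 0.0068) and 0.21 ± 0.01 (adjusted p = 0.0133), a 1.18-fold and 1.16-fold rise, with all 6 arrays above 0 and the doses overlapping. The 10PTC call was lost without 10PTC replicate 1 or 3, and with slide as a block (adjusted p = 0.0637).

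Ccng1, a cyclin that p53 induces early, and Gadd45a, a DNA damage and stress sensor, rose at PTC with means of 0.28 ± 0.09 and 0.30 ± 0.13. At 10PTC their means were 0.23 ± 0.23 and 0.24 ± 0.22 and missed the threshold (limma adjusted p = 0.0803 and 0.0759), with 10PTC replicate 2 at -0.03 and 0.00 and the other arrays of that dose between 0.28 and 0.45. The PTC calls of both were lost without PTC replicate 1, PTC replicate 3 or 10PTC replicate 3, and that of Ccng1 also without PTC replicate 2. Zmat3, an RNA-binding protein, fell at both doses, with means of -0.25 ± 0.05 and -0.16 ± 0.03 and all 6 arrays below 0. Plk3, a stress-responsive kinase, fell at PTC alone, at -0.21 ± 0.08, and was at -0.14 ± 0.15 at 10PTC. Btg2, which slows proliferation, was at 0.01 ± 0.07 at PTC and rose at 10PTC, at 0.24 ± 0.07 (limma adjusted p = 0.0131). Sesn1, a regulator of growth signalling, passed at neither dose and lay between -0.11 and 0.03 on the 6 arrays. Under median centring Zmat3 was at -0.07 at PTC and 0.06 at 10PTC and Plk3 at -0.12 at PTC, with no call left, while Ccng1 and Gadd45a passed at 10PTC, at 0.44 and 0.46, and Btg2 at PTC, at 0.17. The 10PTC call of Zmat3 was also lost without PTC replicate 3 or any one 10PTC array. The call of Plk3 was lost without PTC replicate 2, PTC replicate 3 or 10PTC replicate 1, and that of Btg2 without 10PTC replicate 1 or 3.

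The p53 targets that act on death or survival signalling outside the Bcl2 family did not move alike. Trp53inp1, a stress protein that promotes p53 activity, rose by 0.32 ± 0.07 at PTC and 0.40 ± 0.13 at 10PTC (limma adjusted p = 0.00707 and 0.00451). Aen, a nuclease that acts in apoptosis, rose at PTC, at 0.31 ± 0.18, and was at 0.07 ± 0.04 at 10PTC. Its second probe shares 50 of 60 bases with the first, gave means of 0.30 and 0.08, and is no separate measurement. The PTC call of Aen was lost without PTC replicate 3, and under median centring it passed at 10PTC too, at 0.30. Phlda3, an inhibitor of Akt, passed at neither dose, with arrays from -0.11 to 0.65. Of the 7 genes with a decamer in a promoter window, Aen, Ccng1, Cdkn1a, Gadd45a and Mdm2 rose at PTC, Bax fell and Sesn1 passed in neither direction. Of the measured p53 targets whose windows had none, Fas rose, Plk3 fell, and Btg2, Phlda3 and Bbc3 did not pass at PTC. At 10PTC, Cdkn1a and Mdm2 were the only genes with a decamer that rose, Bax fell and the rest did not pass. Of those without, Fas and Btg2 rose at 10PTC and the rest did not pass. Over all genes, 16.9% rose and 16.3% fell at PTC, and 14.4% and 13.3% at 10PTC. A difference between genes with and without a decamer was not tested. Zmat3, Trp53inp1 and Pmaip1 had no window in the table.

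The genes that promote death and those that oppose it did not separate cleanly. Of 18 pro-apoptotic members, 7 rose and 2 fell at PTC and 6 rose and 2 fell at 10PTC. Of all genes, 16.9% rose and 16.3% fell at PTC, and 14.4% and 13.3% at 10PTC. The falling members were thus near or below the share of all genes. None of the 3 survival genes was called higher at either dose after loess with the brightest probe, and Bcl2 fell at PTC. With the mean of a gene's probes, also after loess, Mcl1 was called higher at both doses (0.27 and 0.32, limma adjusted p = 0.022 and 0.0163). Under median centring Bcl2l1 and Mcl1 were called higher at both doses and Bcl2 was not called. The medians were 0.04 and 0.02 for the pro- and anti-apoptotic groups at PTC and 0.12 and 0.06 at 10PTC. Array by array, the pro-apoptotic median lay above the anti-apoptotic one on all 6, by 0.02 to 0.19. With only 3 genes in the survival group and no test over the lists, this order is a description. It does not hold under median centring, where the pro- and anti-apoptotic medians were 0.20 and 0.20 at PTC and 0.24 and 0.32 at 10PTC. Nor does it hold at PTC with the mean of a gene's probes after loess. There the middle survival gene was Bcl2l1, at 0.0506, against a pro-apoptotic median of 0.0435 in the main analysis. Without PTC replicate 1, the anti-apoptotic median at PTC was -0.04.

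**Figure D2:**
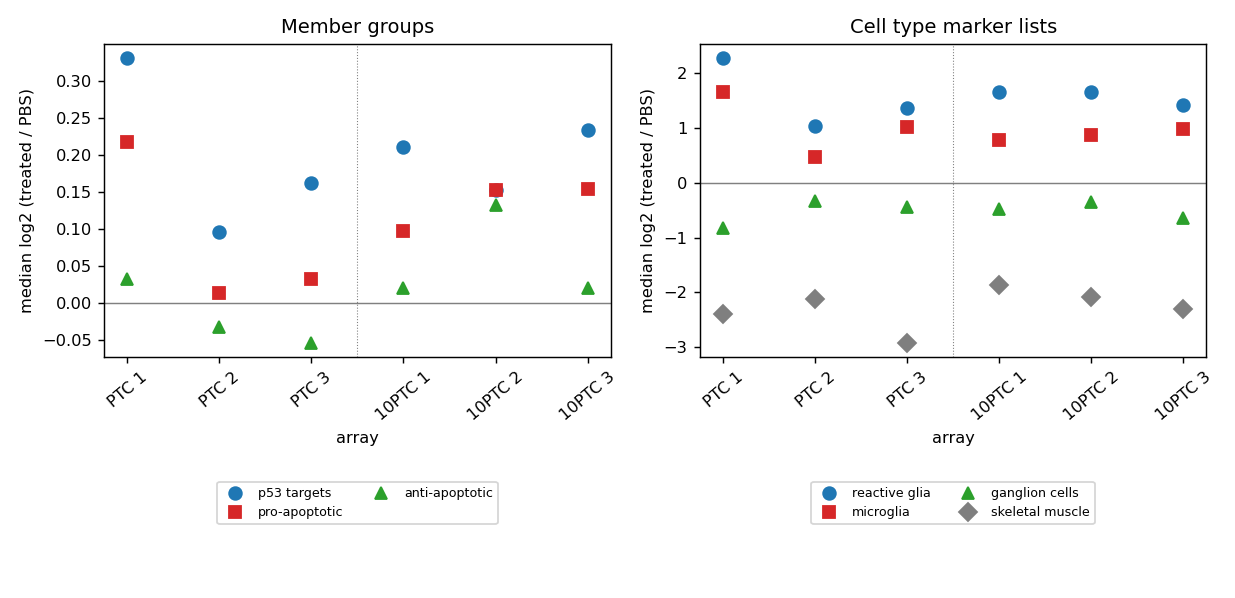
Each point is the median log2 ratio of a gene list on 1 array, with the p53 targets (15 genes), pro-apoptotic (18) and anti-apoptotic (3) members on the left and 4 lists of cell type markers on the right, on a different scale. PTC replicate 1 is the highest of the PTC arrays for each member group and for reactive glia and microglia markers.

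Bax and Bak1 are the effectors that form the mitochondrial pore. Bax had ratios of -0.40, -0.67 and -0.48 on PTC replicates 1 to 3. On 10PTC replicates 1 to 3 they were -0.49, -0.35 and -0.61. All 6 arrays were below 0 and the doses overlapped. Bax fell to 0.70-fold at PTC, a mean of -0.52 ± 0.14 (SD, n = 3; limma adjusted p = 0.00264), and to 0.72-fold at 10PTC, at -0.48 ± 0.13 (adjusted p = 0.00425). Leaving out any single array kept both calls; the PTC call was lost within slide 1, whose value was -0.53, and the 10PTC call with slide as a block (-0.51, adjusted p = 0.0565). Bak1 passed at neither dose, with a mean of -0.16 at PTC and -0.09 at 10PTC.

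The 7 BH3-only genes, whose products trigger or sensitise the mitochondrial route, had 3 members higher and 1 lower at each dose. The shares of all genes were 16.9% higher and 16.3% lower at PTC, and 14.4% and 13.3% at 10PTC. Pmaip1, which encodes the p53-induced protein Noxa, had the largest mean of the members at both doses. It read 1.61, 0.53 and 1.28 on PTC replicates 1 to 3. At 10PTC it read 0.60, 0.83 and 1.20. Every array was above 0, PTC replicate 2 was the lowest, and the doses overlapped. Its control signal was well above background on 0 of 3 PTC arrays and on 1 of 3 10PTC arrays, while the treated signal was on all 6. The probe thus passed the filter on dim probes only through the treated channel, where the gene is high. Its calls and its place among the higher members are therefore no independent support. The PTC log2 mean was 1.14, or 2.20-fold, with a 95% interval from 0.69 to 1.59 (limma adjusted p = 0.0056). It is the mean treated signal over the dim control's own level, so its size is uncertain and is no firm lower bound. Over the alternatives run, the PTC value went from 0.91 to 2.87. At 10PTC, where 1 of 3 arrays measured the control, the log2 mean was 0.88 ± 0.30 (limma adjusted p = 0.0164). That 10PTC call was lost without any single 10PTC array. With the scanner software's processed signals in place of mean signals, the log2 means were 2.85 and 2.34.

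Hrk, a BH3-only gene known from neurons deprived of growth factor, was the one member called at 10PTC alone with a mean above 0.5. Its ratios were 0.61, -0.01 and 0.38 at PTC and 0.32, 0.62 and 0.66 at 10PTC. The doses overlapped, and 5 of 6 arrays were above 0. The means were 0.33 ± 0.31 (SD, n = 3; limma adjusted p = 0.0655) and 0.53 ± 0.18 (adjusted p = 0.0159); the latter call was lost without any one 10PTC array. Bik rose at both doses, at 0.29 ± 0.23 and 0.37 ± 0.15, and both calls were lost without any one 10PTC array, the PTC call also without PTC replicate 1 or 3 and both under median centring. Its control signal was well above background on 2 of 3 PTC arrays. With processed signals its means were 0.78 and 0.81, and the 10PTC call was lost. The PTC call was lost without background subtraction and with a correction offset of 0. Bid, which links caspase-8 to the mitochondrion, rose at PTC, at 0.34 ± 0.23, and was at 0.13 ± 0.01 at 10PTC; its call was lost without PTC replicate 3.

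Bad, a sensitiser held inactive by survival kinases, fell slightly at both doses, at -0.19 ± 0.05 and -0.20 ± 0.11, but was at -0.03 and 0.03 under median centring, with no call. Its PTC call was lost without any one PTC array or 10PTC replicate 3, and its 10PTC call without PTC replicate 3 or 10PTC replicate 1 or 3. Bbc3, which encodes Puma, a main killer downstream of p53, had ratios of 0.33, -0.16 and -0.01 at PTC. At 10PTC they were -0.02, 0.20 and 0.23. Arrays lay on both sides of 0 at each dose. The means of 0.06 ± 0.25 and 0.14 ± 0.14 did not pass (limma adjusted p = 0.675 and 0.304), with 95% intervals from -0.16 to 0.27 and from -0.08 to 0.35. Under median centring the 10PTC mean was 0.33 and passed (adjusted p = 0.016). Bcl2l11, which encodes Bim, also passed at neither dose, with means of 0.03 and 0.08.

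Fas and caspase-8 rose while their adaptors did not pass. Fas, the death receptor and a p53 target, read 0.93, 0.14 and 0.83 on PTC replicates 1 to 3. At 10PTC it read 0.75, 0.63 and 0.94. PTC replicate 2 was low and the other 5 arrays lay together. Fas rose 1.55-fold at PTC, at 0.63 ± 0.43 (SD, n = 3; limma adjusted p = 0.0147), and 1.71-fold at 10PTC, at 0.77 ± 0.16 (adjusted p = 0.00974). The PTC call was lost without PTC replicate 1 (0.48, adjusted p = 0.0544) or 3, and the 10PTC call without 10PTC replicate 1 or 3 or with slide as a block (adjusted p = 0.127).

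Casp8, the initiator caspase of the receptor route, also restrains necroptosis. Its ratios were 0.94, 0.51 and 0.73 at PTC and 0.59, 0.74 and 0.65 at 10PTC. All 6 arrays were above 0.5 and the doses overlapped. Casp8 rose 1.66-fold, at 0.73 ± 0.22 (SD, n = 3; limma adjusted p = 0.0014), and 1.58-fold, at 0.66 ± 0.08 (adjusted p = 0.0026). Its 10PTC call was the one member call kept under all 27 alternatives run, with adjusted p up to 0.0455, and its PTC call was lost only within slide 1 (adjusted p = 0.0848). The processed signals gave larger means, 1.29 and 1.05. Fadd, which couples Fas to caspase-8, had means of 0.00 and 0.11, and Tradd, the adaptor of the TNF receptor, -0.07 and -0.05.

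Downstream of the mitochondrion, Apaf1, the scaffold of the apoptosome, rose at both doses, at 0.24 ± 0.08 and 0.39 ± 0.20 (limma adjusted p = 0.044 and 0.0107). Its PTC call was lost without any one PTC array or 10PTC replicate 3, and its 10PTC call without 10PTC replicate 1 or 3. Casp6, an executioner caspase linked to axon degeneration, rose at PTC, at 0.36 ± 0.21, and was at 0.20 ± 0.08 at 10PTC (adjusted p = 0.0946), which passed under median centring, at 0.32. Casp9, the initiator that Apaf1 activates, Casp2 and Casp12 passed at neither dose, with means from -0.12 to 0.02.

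Of the survival genes, Bcl2 had ratios of -0.44, -0.28 and -0.16 on PTC replicates 1 to 3. On the arrays of 10PTC they were -0.22, -0.11 and -0.06. All 6 were below 0. Bcl2 fell at PTC, to 0.82-fold (-0.29 ± 0.14, SD, n = 3; limma adjusted p = 0.0111), and at 10PTC the mean of -0.13 ± 0.08 did not pass (adjusted p = 0.153). Median centring ended the PTC call, at -0.13 (adjusted p = 0.122), and placed the 10PTC mean at 0.07. Bcl2l1, which encodes Bcl-xL, read 0.03, 0.07 and -0.03 at PTC and 0.02, 0.13 and 0.02 at 10PTC, and did not pass at either dose. Under median centring it passed at both, at 0.22 and 0.32 (limma adjusted p = 0.00616 and 0.00123).

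Mcl1, a short-lived survival protein, gave different answers with its 2 probes. The brighter probe, used here, read 0.17, -0.03 and -0.05 at PTC. At 10PTC it read 0.13, 0.14 and 0.12. These means of 0.03 ± 0.12 and 0.13 ± 0.01 did not pass (limma adjusted p = 0.706 and 0.11). The dimmer probe, 1312 bases upstream on chr3 of mm9 and drawn from the same transcript record, read 0.79, 0.34 and 0.42 at PTC and 0.64, 0.39 and 0.49 at 10PTC. Its means of 0.51 and 0.51 did pass over all probes (limma adjusted p = 0.00579 and 0.00811). Every array of the dimmer probe lay above every array of the brighter one, both probes gave clear signal over background on all 6 arrays with either dye, and the mean of the pair passed at both doses (0.27 and 0.32). The brighter probe passed under median centring too (0.20 and 0.37). Whether Mcl1 is called therefore depends on the probe and on the normalization.

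**Figure D3:**
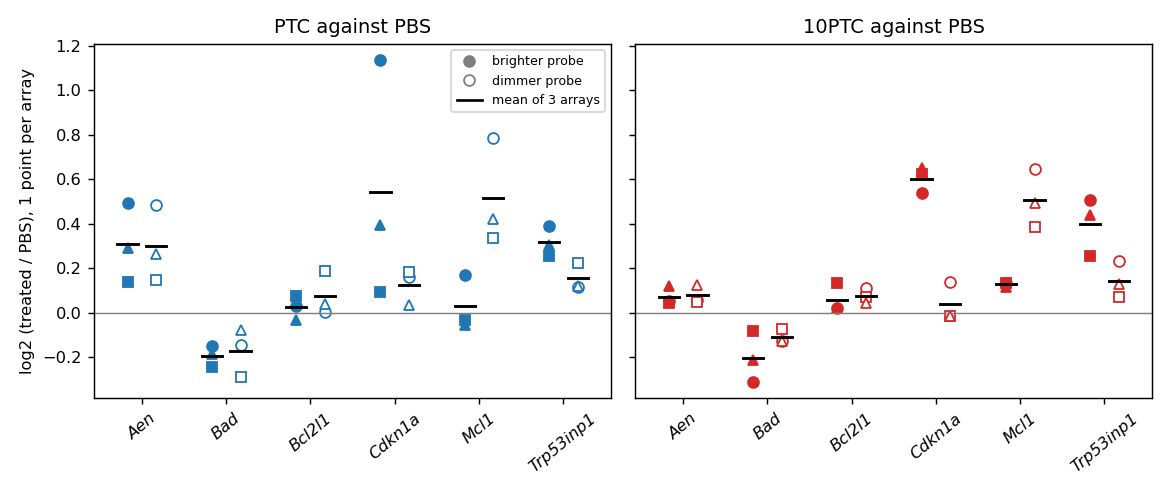
Each point is 1 array's log2 ratio of treated over PBS for the brighter (filled) or dimmer (open) probe of the 6 measured members with 2 probes, at PTC on the left and 10PTC on the right, with replicates 1, 2 and 3 as circle, square and triangle and bars at the mean. Mcl1 and Cdkn1a show the widest gaps between probes, in opposite directions, the dimmer Cdkn1a probe being near background, and the 2 probes of Aen, Bad and Bcl2l1 lie close together.

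The means of the other pairs differed less. Trp53inp1 had means of 0.32 and 0.40 with the brighter probe and 0.15 and 0.14 with a probe 8644 bases away. Bad had -0.19 and -0.20 with the brighter and -0.17 and -0.11 with the dimmer probe. The dimmer probes of both genes passed at PTC and missed the threshold at 10PTC (limma adjusted p over all probes 0.0619 and 0.144), so these 10PTC calls depend on the probe.

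The 10-fold step in dose made no call between the doses. For 10PTC against PTC, 0% of all genes and 0 members passed in limma; at an unadjusted p under 0.05 there were 2130 genes, 2 of them members, and leaving out 1 array in turn gave 0 members and at most 1 gene. Those 2 members were Btg2, at 0.23 higher with 10PTC (95% interval 0.07 to 0.39, unadjusted p = 0.0107), and Aen, at -0.24 (-0.45 to -0.02, unadjusted p = 0.0383); their adjusted p were 0.57 and 0.597. All 10PTC arrays lay above all PTC arrays for Btg2 and Zmat3, where 8.91% of all genes did, and below them for Aen, where 6.59% did. PTC replicates 1 and 2 were on slide 1, while PTC replicate 3 and all 10PTC arrays were on slide 2. A difference between the doses can therefore not be told apart from one between the slides. The intervals were wide for the members that rose most, from -0.89 to 0.38 for Pmaip1, -0.49 to 0.61 for Cdkn1a and -0.33 to 0.61 for Fas, and narrower for Casp8 (-0.33 to 0.19) and Bax (-0.19 to 0.26). They do not show that the doses act alike.

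**Figure D4:**
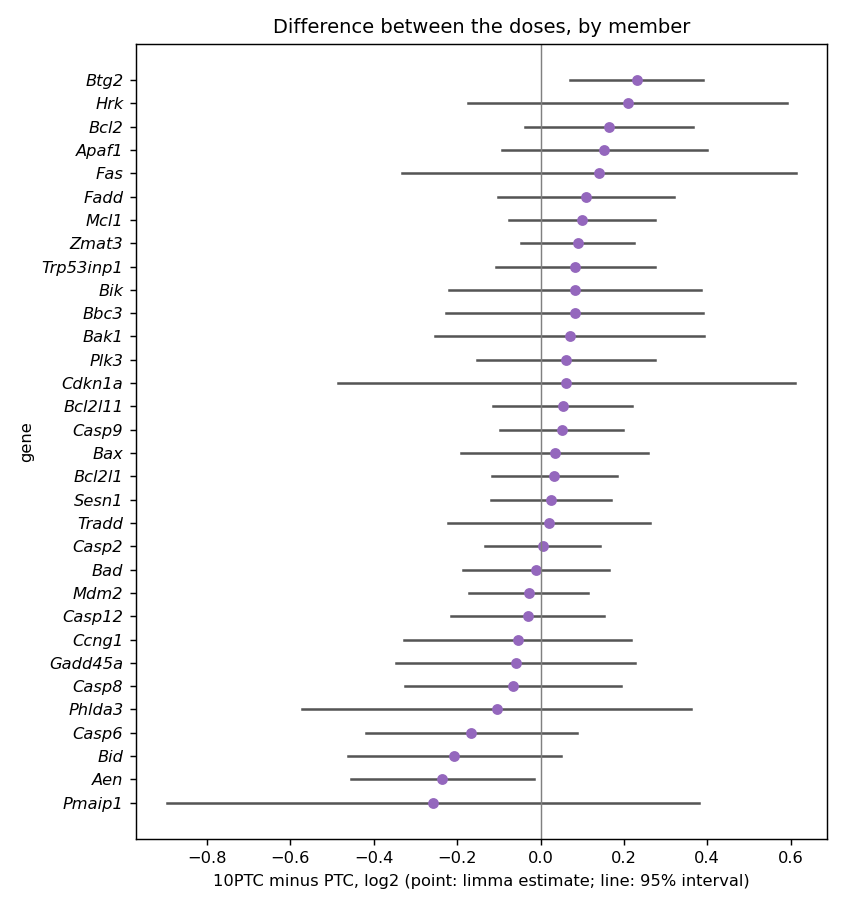
Each point is the limma estimate of the log2 difference, 10PTC minus PTC, for 1 of 32 members, ordered by size, and each line its 95% interval. The intervals of Btg2 and Aen lie clear of 0 before adjustment, and the others include it.

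The PTC arrays stood in a common order for many members. PTC replicate 1 had the highest ratio of its dose for 24 of 32 members, or 75%, where 36.3% of all genes had it highest. For 20 members, or 62.5%, the order was replicate 1, then 3, then 2, against 22.8% of all genes. Among all genes called higher at PTC the shares were larger, 53.1% with replicate 1 highest and 34.5% in this order. For the 13 members called higher at PTC they were 84.6% and 76.9%. The SD was larger at PTC than at 10PTC for 21 members (65.6%), close to the 63.9% of all genes. The median of 13 microglia markers followed the same order, at 1.66, 0.47 and 1.02 on PTC replicates 1, 2 and 3 and from 0.79 to 0.99 at 10PTC. That of 10 reactive glia markers did too, at 2.28, 1.05 and 1.37.

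The cell type markers of the arrays were checked because several members are also expressed by immune cells and glia. All 10 rod markers, with Gnat1 and Sag, were measured and stood above background, as the tissue label requires. Microglia markers were higher for 11 of 13 at both doses, with Aif1 at 1.24 and 1.08; their summed control signal ran from 18010 to 27890, and the treated sums from 32550 to 44400 at PTC and from 40750 to 44600 at 10PTC. Reactive glia markers were higher for 10 of 10 at both doses, and ganglion cell markers were lower for 9 and then 8 of 10, with Pou4f1 at -0.72 and -0.61. Skeletal muscle markers were lower for 12 of 12 at both doses, with sums of 58310 to 79180 in control and 9187 to 17960 in treated channels, so the control RNA held muscle transcripts that the treated RNA held less of. Erythroid markers were lower for 5 and then 3 of 5 measured, with medians of -1.14 at both doses and sums of 48190 to 61800 in control, 15770 to 36100 in PTC and 23120 to 28290 in 10PTC channels. The part of each of these in the members' values was not tested.

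Around the members, the other genes of the pathway gave mixed counts, each to be read against the 16.9% higher and 16.3% lower of all genes at PTC and 14.4% and 13.3% at 10PTC. Trp53 itself, which is controlled mainly as a protein, had means of -0.08 and -0.01 and did not pass. Among 15 measured genes that act on p53, 6 were higher and 3 lower at PTC and 5 and 2 at 10PTC. The damage kinases Atm, at 0.55 and 0.49, and Atr, at 0.45 and 0.33, rose at both doses, as did Usp7, a deubiquitinase of Mdm2 and p53, at 0.15 and 0.20. Mdm4, the partner of Mdm2 that inhibits p53, fell, at -0.24 and -0.31. Of 36 further genes listed as linked to p53, most of them as its targets, 8 were higher and 5 lower at PTC and 5 and 3 at 10PTC. Cd80, an immune costimulator, at 0.55 and 0.50, and the translesion polymerase Polk, at 0.28 and 0.37, rose at both doses. Wrap53 and Fdxr fell at PTC, at -0.25 and -0.24, and were at -0.12 and -0.07 at 10PTC.

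Receptor-route genes outside the list moved only upward where they passed. Of 14 measured, 6 were higher at PTC and 5 at 10PTC, and 0 were lower, where 16.9% and 14.4% of all genes were higher. These included the TNF receptors Tnfrsf1a, at 1.09 and 0.97, and Tnfrsf1b, at 0.56 and 0.61 (control above background on 1 of 3 PTC and 2 of 3 10PTC arrays), and the kinase Ripk1, at 0.41 and 0.42. Fasl, the ligand of Fas, is among those counted at both doses. Its probe was not well above background in either channel at PTC or in the control at 10PTC, so no level is given. It passed the filter on dim probes only through the treated channel at 10PTC, so its calls are no support for the upward counts. Of 10 other Bcl2 family genes, 2 rose and 3 fell at each dose. Bcl2a1d, a survival gene of leukocytes, rose most, at 1.69 and 1.497, and Bok, a pore former related to Bax, at -0.55 and -0.47, Bnip3, a mitophagy receptor, at -0.44 and -0.34, and Bcl2l13, at -0.19 and -0.25, fell.

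Executioner caspases, their inhibitors and the nucleases and other mitochondrial factors had 2 of 15 higher and 3 lower at each dose, against the same shares of all genes. Parp1, the DNA repair enzyme that caspases cleave, rose, at 0.28 and 0.40, and so did Birc2, an inhibitor of apoptosis, at 0.18 and 0.27. Dffa, the inhibitor of the apoptotic nuclease, fell, at -0.30 and -0.20. Endog, a mitochondrial nuclease, fell at PTC, at -0.25, and was at -0.16 at 10PTC.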

How the data were processed

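The members and the gene lists were chosen with earlier results of these data known, so no count over them is independent evidence of its direction. The authors deposited scanner output with the intensity of each spot for both dyes and its log10 ratio. Per the file headers it was written by Feature Extraction 10.7.3.1 under protocol GE2_107_Sep09, but version 9.3.2.1 stands in the submitters' processing notes. As an alternative, the authors' deposited table of log2 ratios was used; against each array's log10 ratio it had r from 0.983 to 1.00 and a slope of 3.32, so it runs as Cy5 over Cy3, and its centring stays unknown, with column medians from -0.075 to 0.039. The labels do not say how many PBS pools supplied the control RNA. RNA was extracted with Trizol and labelled directly, per the labels' protocols.

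Mean signals less local background were corrected with normexp (offset 50) and loess (R 4.3.3, limma 3.58.1; the package data.table was at 1.17.8), with 1377 control spots at weight 0 and outlier spots left out. Of 39429 probes, 6939 failed the filter, which asked for a signal well above background with 1 dye on 3 or more of the 6 arrays. The brightest probe stood for each gene. The 40 member probes all map to their gene by their RefSeq accession. The share of spots well above background was 71.7% and 71.0% on PTC replicates 1 and 2, the arrays of slide 1. It was 82.1% to 85.5% on the arrays of slide 2. No member spot was saturated. The number of arrays limits the precision, and p-values measure the spread between arrays of treated pools of 4 retinas. With 12 mice per group and right eyes only, the PBS group was too small for a separate pool of 4 on each of 6 arrays. If all control RNA came from that group, it was shared between arrays, and the p-values leave out at least part of the control's own spread. If a single PBS pool supplied every control channel, they leave out all of it. The model had 4 residual and 3.41 prior degrees of freedom; a SD given for 1 dose is not the spread the test used.

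Full values are given for members that passed with a mean of at least 0.5 at either dose, and for Cdkn1a, Mdm2, Bax, Bbc3, Bcl2, Bcl2l1 and Mcl1. Up to 4 genes of smallest p are named per pathway list. Others named, such as Trp53, were chosen after their values were seen. Some items are not reported here. Simulated data with known changes served to test the fit. Alternatives were other signals, background corrections, normalizations, filters, probe rules, gene names, priors, weights, blocks, slides, a base composition correction and each array left out in turn.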

Additional observations from a re-analysis of the deposited data

How the results depend on the processing

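Of the alternatives run for the members that were named or called, 1657 values kept their direction or their side of the threshold, 166 lost a call, 32 gained one and 2 changed sign: Zmat3 (0.058) and Bad (0.029), both at 10PTC under median centring. A sign change of a member that was never called is counted among the first. The tally also holds 10PTC against PTC, where no member was called, and members not called against PBS. Those values had no call to lose, so the share that stayed is no measure of how stable the calls were. Higher members at PTC numbered 13 in the main analysis, 7 with each dose alone, 8 with slide as a block, 0 within slide 1 and 4 within slide 2, and from 5 to 12 with 1 array left out. Lower members at PTC numbered 5, then 1 under median centring, 3 with each dose alone, 3 with the replicate block, 3 with slide as a block, 0 within slide 1 and 1 within slide 2, and from 3 to 5 with 1 array left out. At 10PTC, 10 were higher, then 6 with processed signals, 20 under median centring and 1 with slide as a block, and from 2 to 12 with 1 array left out; 3 were lower, then 1 with processed signals, 1 with the authors' deposited table, 1 with the replicate block and 0 with slide as a block, and from 1 to 3 with 1 array left out. A change of at least 1.5-fold beside the adjusted p, chosen after seeing the data, left 3 higher and 0 lower at PTC and 4 higher and 0 lower at 10PTC.

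Under median centring the medians of p53 targets, pro-apoptotic and anti-apoptotic members were 0.41, 0.20 and 0.20 at PTC and 0.44, 0.24 and 0.32 at 10PTC, while the median of all genes was 0.05 and 0.08. The pro-apoptotic median was 0.31 at PTC with processed signals and 0.33 and 0.17 at PTC and 10PTC with the authors' deposited table; the anti-apoptotic median at PTC was -0.053 within slide 2 and from -0.043 to 0.053 with 1 array left out; that of p53 targets at 10PTC ran from 0.16 to 0.21. The cause of these shifts was not tested. Over all genes, median centring gave 8203 higher and 4212 lower at PTC in place of 4404 and 4252, and 9646 and 4988 at 10PTC in place of 3762 and 3469; within slide 2, 957 and 758 genes were higher and lower at PTC, slide as a block left 599 and 410 at 10PTC, and leaving out 1 array gave as few as 2536 and 2468 at PTC and 771 and 589 at 10PTC.

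Replicate numbers were not treated as pairs of pools in the main fit. Same-numbered arrays correlated at -0.27, 0.15 and 0.20 in their deviations from the dose means, and not every array correlated best with its own number. With 3 arrays per dose, and PTC replicates 1 and 2 on another slide than the 10PTC arrays, these values cannot show whether the pools were paired. The replicate block gave 11 members higher and 3 lower at PTC, and 9 and 1 at 10PTC.

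Precision is limited by 3 arrays per dose and by signal: Pmaip1 had a control signal near background, and its size and that of Bik depend on how background is removed.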
